A study of Homo sapiens with 6 samples.

Results

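Imprinted genes are genes that a cell reads mainly from the copy inherited from one parent. Rows of the deposited table whose symbol equals one of 39 listed imprinted genes were taken, and all 39 had a row among the 60546 gene identifiers of the table. The mark that separates the parental copies is DNA methylation laid down in the germline at a control region, and 1 such region often governs a cluster of neighbouring genes of which some are read from the paternal and others from the maternal copy. Several of these genes steer fetal growth, and loss of imprinting, in which both copies come to be read alike, is known in colon tumours at the IGF2 and H19 locus. By general knowledge 23 of the genes were assigned to the paternal copy and 12 to the maternal copy. A further 4 (GNAS, GRB10, BLCAP and COPG2) were set apart as dependent on tissue or isoform or disputed. The split is coarse, as imprinting of IGF2R, assigned to the maternal copy, varies between people. Imprinting of other assigned genes may also be limited to some tissues or isoforms. A value per gene does not tell the parental copies apart, so what follows concerns total RNA of each gene and not imprinting itself.

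RNA was sequenced from 3 samples of HCT-116-PMSCV-GOLPH3 cells and 3 samples of HCT-116-PMSCV-Vector cells. HCT-116 is a human colon carcinoma line, and the labels give every sample the genotype wild type, the tissue colon and lysis in Trizol. Per the study's methods, stable lines were made with lentiviral constructs carrying GOLPH3 cDNA in PMSCV or the vector without it, and the samples of each line came from different generations of that line. The titles give the GOLPH3-labelled libraries the numbers P8, P12 and P13 and the Vector-labelled libraries P12, P11 and P13, for replicates 1, 2 and 3 in that order. Each group is 1 line, so the effect of GOLPH3 and a difference between the lines cannot be told apart.

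Some features of the libraries stand beside every result below. Libraries held 15708846 to 21900764 recovered reads, and 3 reads, which correspond to 2.47 to 3.29 normalized reads, were taken as the floor of detection. The GOLPH3 transcript was not higher in the GOLPH3-labelled libraries, with a log2 fold change of -0.31 and an adjusted p of 0.609 (limma, Benjamini-Hochberg), so groups are called by their labels. The summed level of 18 colon epithelium markers ran from 84722 to 159444 normalized reads in the GOLPH3-labelled and from 39485 to 46532 in the Vector-labelled libraries. A large part of this sum was keratin, as KRT8 alone gave 42608, 25226 and 75110 normalized reads against 13626, 19434 and 23728. Of these markers, CDX1 and KRT20 were at or under the floor in all 6 libraries. CDX2 gave 247, 261 and 358 normalized reads in the GOLPH3-labelled and 415, 184 and 897 in the Vector-labelled libraries. Its groups overlapped, and its mean was lower in the GOLPH3-labelled libraries (289 against 499), unlike the sum. VIL1, CDH17, LGALS4, GPA33 and CEACAM5 had at most 4, 9, 5, 8 and 10 reads in any library, so the sum does not stand for all markers. The summed level of 12 markers of embryonic kidney (HEK293) cells ran from 161 to 246 against 3987 to 11853, and 7 of the 12 (IRS4, NEFL, NEFM, UCHL1, WT1, HAND1 and CDH2) were at or under the floor in the GOLPH3-labelled libraries and above it in the Vector-labelled libraries. The 10 fibroblast markers summed to 1095 to 1902 against 976 to 2661, and 6 leukocyte markers to 2.47 to 7.51 against 19.7 to 54.1. The cells are called HCT-116 here as labelled, and the part of these marker differences in the results was not tested.

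Of the 39 imprinted genes, 28 passed the filter on low values and were compared, and for 11 no library exceeded 3 reads. ZDBF2 was lower in the GOLPH3-labelled libraries, and no other imprinted gene passed the test in either direction. Thus 1 of 28 was called lower where 4.12% of all 26536 genes tested were, and 0 of 28 were called higher where 0.953% of all genes were. By an unadjusted p under 0.05, SLC22A18 was higher and ZDBF2, COPG2 and GRB10 were lower, which is 4 of 28 beside 17.6% of all genes, and edgeR and DESeq2 on recovered reads called 0 and 1 imprinted genes higher. The values of the groups did not overlap, in the higher direction, for SLC22A18 and L3MBTL1 (2 of 28, beside 9.2% of all genes) and, in the lower direction, for ZDBF2, COPG2 and HYMAI (3 of 28, beside 12.8%).

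The estimated log2 fold change of GOLPH3 against Vector was positive for 19 and negative for 9 of the 28 genes, with a median of 0.34 beside 0.02 over all genes tested. It lay between -1 and 1 for 25 of the 28, but the 95% confidence interval lay within those limits for 6 genes alone, and the interval of the other 22 reached a 2-fold difference in at least 1 direction. The 6 were PLAGL1, BLCAP, UBE3A, GNAS, IGF2R and INPP5F. Grouped by assigned parent, which is a coarse split, 1 of 15 paternally expressed genes was called lower. Of the maternally expressed genes 0 of 9 were called, and of those with mixed or disputed imprinting 0 of 4. The median log2 fold change was 0.35 for the paternally expressed genes, of which 10 were positive, and 0.53 for the maternally expressed genes, of which 8 were positive. In bulk RNA, fewer cells of a type and less RNA per cell cannot be told apart.

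**Figure D1:**
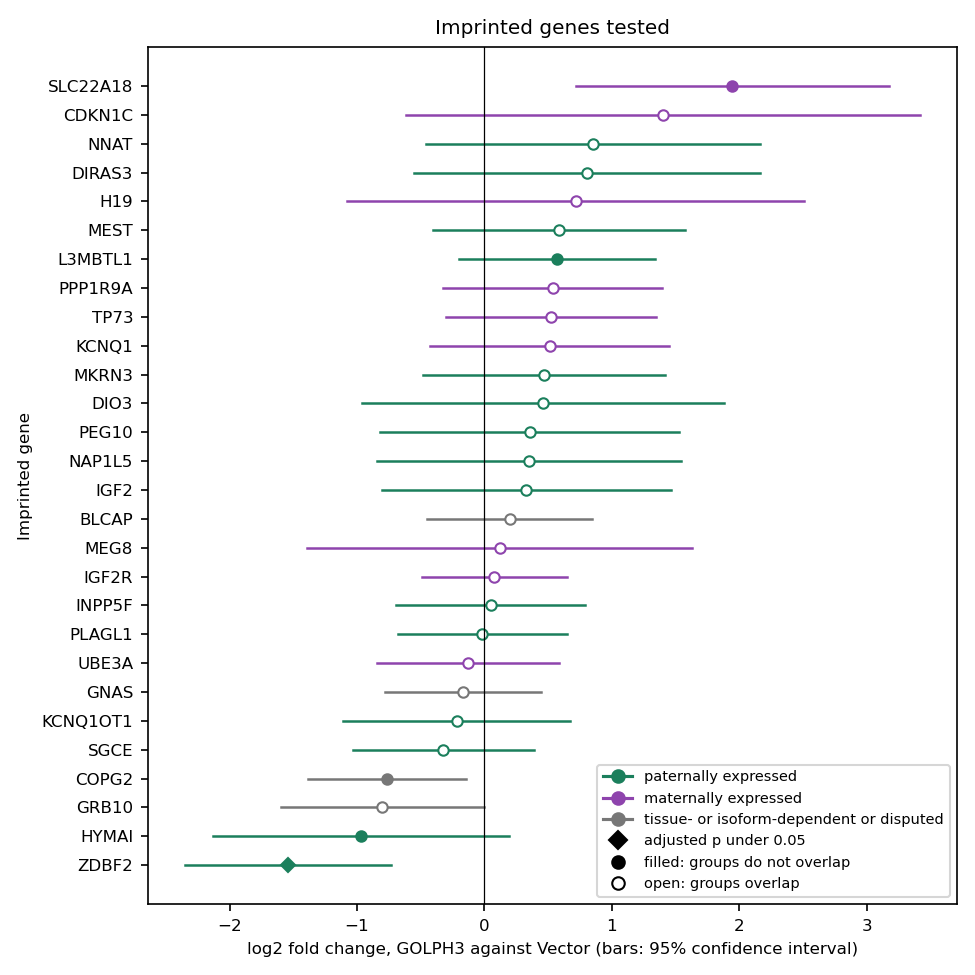
Log2 fold change of GOLPH3-labelled against Vector-labelled libraries (horizontal axis) for the 28 imprinted genes tested, with 95% confidence intervals as bars, coloured by parent of expression. ZDBF2 at -1.54 is the one gene with an adjusted p under 0.05 (diamond), and filled symbols mark the 5 genes whose groups do not overlap.

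For 4 of the loci a stretch of promoter is shown with its CG dinucleotides. These loci carry the one called gene, 2 pairs of neighbours whose read shares are compared below and the Prader-Willi genes listed at 0. Whether a stretch lies in the control region of its locus was not examined, and methylation was not measured. Each line gives bases before a start site from RefSeq on GRCh38.p14, 5′ to 3′ on the gene's strand, without bases that lie in an annotated exon of that strand, and capitals mark CG dinucleotides, the bases that carry the methylation mark. Where a gene has several starts, the start it shares with its partner was taken, and otherwise the one with the most CG before it among those free of exon bases. The positions are chr2:206274413-206274662 (plus strand) for ZDBF2, chr6:144008431-144008509 (minus strand) for the start that PLAGL1 and HYMAI share, chr15:24954737-24954926 (plus strand) for the start that SNRPN and SNURF share, and chr7:130491808-130492057 (plus strand) for MEST.
ZDBF2: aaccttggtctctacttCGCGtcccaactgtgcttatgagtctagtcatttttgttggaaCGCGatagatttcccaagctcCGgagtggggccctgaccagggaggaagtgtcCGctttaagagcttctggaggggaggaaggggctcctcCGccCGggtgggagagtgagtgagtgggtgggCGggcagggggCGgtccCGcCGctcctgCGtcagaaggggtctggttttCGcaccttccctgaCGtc
PLAGL1 and HYMAI: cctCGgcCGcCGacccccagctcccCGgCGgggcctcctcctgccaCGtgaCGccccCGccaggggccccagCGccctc
SNRPN and SNURF: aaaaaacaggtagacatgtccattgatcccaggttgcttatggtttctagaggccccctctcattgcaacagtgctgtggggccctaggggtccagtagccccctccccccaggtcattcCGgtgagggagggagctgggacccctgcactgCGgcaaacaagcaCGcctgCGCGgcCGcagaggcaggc
MEST: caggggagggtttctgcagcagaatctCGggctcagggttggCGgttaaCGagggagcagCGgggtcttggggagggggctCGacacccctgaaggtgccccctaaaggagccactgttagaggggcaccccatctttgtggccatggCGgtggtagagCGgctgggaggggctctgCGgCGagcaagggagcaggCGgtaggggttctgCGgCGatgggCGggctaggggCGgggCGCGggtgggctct
They held 15 CG dinucleotides in 250 bases, 9 in 79, 6 in 190 and 16 in 250, in this order. Letters TGCCGC, the motif that the imprint-protecting zinc finger ZFP57 reads when its CG is methylated, were searched on both strands, and each match contains 1 CG. The SNRPN stretch held the reverse complement GCGGCA 1 time, and neither orientation was in the other stretches as printed. In the whole 300-base windows of these starts, which include exon bases, there were 2 matches each for PLAGL1, SNRPN and MEST and 0 for ZDBF2, and 1 in the window of a second ZDBF2 start. Promoters were found for 26 of the 39 genes in 55 distinct windows of 300 bases (250 before and 50 after a start), and 22 of the 55 (40%) held the motif, beside 16.7% of the 35116 promoters in the table. The median number of CG dinucleotides was 18 in the 55 windows and 14 in all promoters, and several windows belong to 1 gene, so these shares are a description. CDKN1C, DLK1, IGF2, KCNQ1, KCNQ1OT1, MEG8, NNAT, PEG10, PEG3, PHLDA2, SGCE, SLC22A18 and ZIM2 were not matched.

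ZDBF2 encodes a zinc finger protein that is expressed from the paternal copy and is linked in mice to feeding and growth after birth. It lies at chr2:206274663-206314438 on the plus strand of GRCh38, and none of its annotated exon sequence is shared with another gene. Normalized reads were 452, 325 and 167 in the GOLPH3-labelled libraries and 938, 864 and 750 in the Vector-labelled libraries. All 3 GOLPH3-labelled values lay below all Vector-labelled values, and GOLPH3 replicate 3 (P13) was the lowest. The means were 314 ± 143 and 851 ± 94.6 normalized reads (SD, n = 3 each), and the log2 fold change was -1.54 with a standard error of 0.37 and an adjusted p of 0.0328 (limma, Benjamini-Hochberg over all genes tested). Within the P numbers that both groups hold, the log2 difference was -1.53 at P12 and -2.16 at P13. The call was lost when any library other than GOLPH3 replicate 1 was left out, with adjusted p between 0.0537 and 0.158 and log2 fold changes between -1.14 and -1.63. Over all alternatives the adjusted p ran from 2.86e-11 to 0.158, and the lowest came with the P number as a block. P8 and P11 occur in 1 library each, so in that fit only the P12 and P13 pairs inform the group difference. GPR1-AS, the neighbouring imprinted non-coding RNA of the same domain, had at most 3 reads in every library.

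The cluster on chromosome 11 under control of KCNQ1OT1 held the largest positive log2 fold change among the 28 listed genes tested, that of SLC22A18, which did not pass the test. KCNQ1OT1 is a long non-coding RNA of the paternal copy that silences its neighbours in cis, while CDKN1C (the cell cycle inhibitor p57), KCNQ1 (a potassium channel), PHLDA2 (a growth-limiting pleckstrin homology protein) and SLC22A18 (a membrane transporter) are read from the maternal copy. SLC22A18, at chr11:2899721-2925246, gave 63.3, 129 and 152 normalized reads in the GOLPH3-labelled libraries and 38.1, 12.1 and 42.9 in the Vector-labelled libraries. The groups did not overlap, and Vector replicate 2 (P11) was the lowest. The log2 fold change was 1.95 with a standard error of 0.56, and the adjusted p of 0.0746 (limma, Benjamini-Hochberg) missed the threshold. It was 1.74 within P12 and 1.80 within P13, and the adjusted p ran from 0.000405 to 0.281 over the alternatives, of which 5 of 15 put it under 0.05. The lowest came with the P number as a block, which rests on the P12 and P13 pairs alone.

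The other genes of the cluster did not move with it in every library. CDKN1C gave 16.1, 60.2 and 241 normalized reads in the GOLPH3-labelled and 29.8, 6.57 and 57.5 in the Vector-labelled libraries. Its highest value in each group was at P13, the groups overlapped, and its values spread 36.7-fold over the 6 libraries, so that a log2 fold change of 1.40 had an adjusted p of 0.48 (limma), and it was called higher with the P number as a covariate or as a block. KCNQ1 gave 104, 72.6 and 153 against 61.8, 61.3 and 104, and KCNQ1OT1 itself gave 169, 132 and 168 against 102, 261 and 221. Neither separated the groups. PHLDA2 had 1 read in 1 library. KCNQ1OT1 took 59.6% ± 6.4 of the normalized reads of KCNQ1OT1 and KCNQ1 together in the GOLPH3-labelled libraries and 70.4% ± 9.56 in the Vector-labelled libraries (SD, n = 3 each). By an exact two-sided permutation test, for which 0.1 is the smallest p that 3 against 3 libraries can give, p was 0.2, and 0.333 after Benjamini-Hochberg adjustment over the 5 pairs of neighbours compared. These shares are not scaled by exon length, which is 91667 bases for KCNQ1OT1 and 4447 for KCNQ1. Per kilobase of exon, the means over all libraries were 1.91 and 20.8 normalized reads. KCNQ1OT1 lies inside the KCNQ1 gene on the opposite strand. Whether the counting used strand is not given, so its reads may include some of KCNQ1.

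SLC22A18AS, the antisense neighbour of SLC22A18 and one of the additional imprinted genes, gave 26.8, 20.6 and 33.1 normalized reads in the GOLPH3-labelled and 1.03, 5.48 and 3.43 in the Vector-labelled libraries. It was higher in every GOLPH3-labelled library, with a log2 fold change of 2.82, a standard error of 0.63 and an adjusted p of 0.021 (limma), and Vector replicates 1 and 3 held few reads. The call was lost in 4 of 15 alternatives. As annotated, 4.27% of the SLC22A18 exon sequence and 12.7% of that of SLC22A18AS lie opposite each other, and whether the counting used strand is not given in the sources used here, so reads of the overlap cannot be assigned to one of them.

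**Figure D2:**
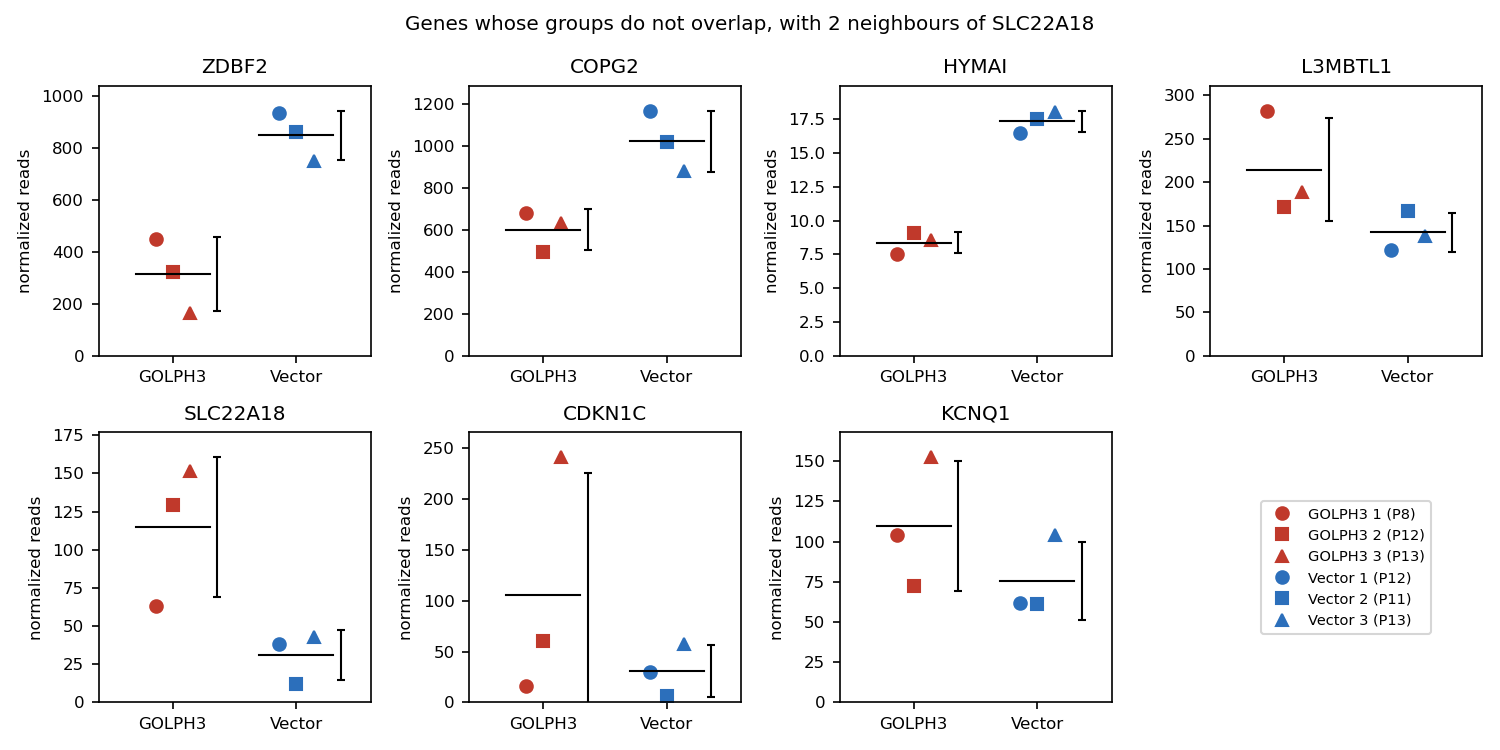
Normalized reads (vertical axis of each panel, from 0) in each library for ZDBF2, COPG2, HYMAI, L3MBTL1 and SLC22A18, whose groups do not overlap, and for CDKN1C and KCNQ1, neighbours of SLC22A18. Lines are group means and bars are ± 1 SD (n = 3), with the bar of CDKN1C in the GOLPH3-labelled group cut off by the axis at 0, and ZDBF2 lies between 167 and 452 in the GOLPH3-labelled against 750 and 938 in the Vector-labelled libraries.

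At the MEST locus on chromosome 7, the neighbours pointed in opposite directions. MEST, a paternally expressed hydrolase of mesoderm, gave 538, 463 and 460 normalized reads in the GOLPH3-labelled and 337, 657 and 153 in the Vector-labelled libraries. The GOLPH3-labelled values lay close together inside the wider Vector-labelled range. COPG2, a subunit of the coatomer that coats Golgi vesicles, whose imprinting is disputed, gave 679, 494 and 635 against 1170, 1019 and 881. All its GOLPH3-labelled values were below all Vector-labelled values, but the log2 fold change of -0.77 with a standard error of 0.28 had an adjusted p of 0.175 (limma). With the P number as a block, under which 22.9% of all genes were called, COPG2 was called lower and MEST higher. Within P12 the log2 difference was -1.24 and within P13 -0.47. MEST took 44.9% ± 3.25 of the reads of the pair in the GOLPH3-labelled and 25.4% ± 12.5 in the Vector-labelled libraries, with no overlap between 42.0% to 48.4% and 14.8% to 39.2%. The exact two-sided permutation p was 0.1, the smallest possible, and 0.25 after adjustment over the 5 pairs. Of the annotated MEST exon sequence 4.76% lies opposite COPG2.

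PLAGL1, a zinc finger transcription factor whose overexpression is known in transient neonatal diabetes, and HYMAI, a non-coding RNA from the same paternal promoter, differed in their pattern. PLAGL1 gave 1040, 1450 and 771 normalized reads in the GOLPH3-labelled and 1155, 1100 and 947 in the Vector-labelled libraries, with a log2 fold change of -0.02 and a 95% confidence interval from -0.68 to 0.65. HYMAI gave 7.51, 9.07 and 8.54 against 16.5, 17.5 and 18.0, on 7 to 21 recovered reads per library. The HYMAI groups did not overlap, but its log2 fold change of -0.97 had a 95% confidence interval from -2.13 to 0.19 and an adjusted p of 0.385 (limma). HYMAI took 0.812% ± 0.251 of the reads of the pair in the GOLPH3-labelled and 1.61% ± 0.234 in the Vector-labelled libraries, with an exact two-sided permutation p of 0.1, the smallest possible, and 0.25 after adjustment. HYMAI shares 8.63% of its exon sequence on the same strand with PLAGL1.

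**Figure D3:**
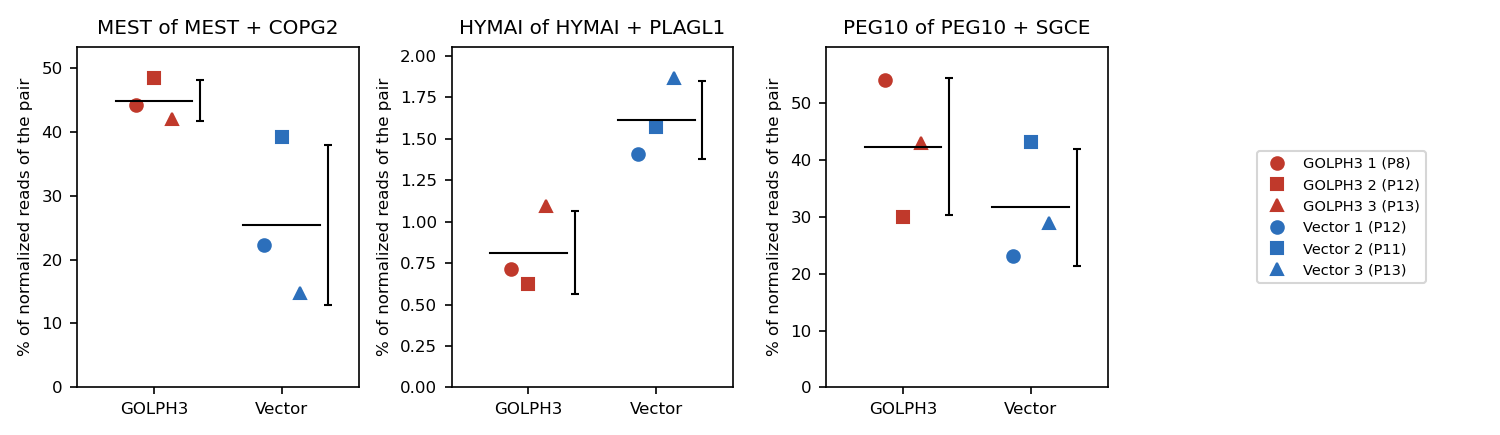
Share of the first gene in the normalized reads of a pair of neighbours (vertical axis, percent, from 0) in each library for MEST with COPG2, HYMAI with PLAGL1 and PEG10 with SGCE. Lines are means and bars ± 1 SD (n = 3), and the groups do not overlap for MEST (42.0% to 48.4% against 14.8% to 39.2%) and HYMAI, whereas they overlap for PEG10.

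The paternally expressed PEG10, a gene derived from a retrotransposon, and SGCE, a sarcoglycan, start side by side on chromosome 7. PEG10 gave 438, 110 and 186 normalized reads in the GOLPH3-labelled and 118, 317 and 114 in the Vector-labelled libraries. It was highest in the P8 library of one group and the P11 library of the other, and low at P12 and P13 in both. SGCE gave 372, 259 and 246 against 395, 418 and 281, and the maternally expressed neighbour PPP1R9A, which binds protein phosphatase 1 and actin, gave 604, 708 and 301 against 378, 473 and 236. All 3 overlapped between groups, and PPP1R9A was called higher with the P number as a block. PEG10 took 42.3% ± 12.1 and 31.7% ± 10.3 of the reads of PEG10 and SGCE, with an exact two-sided permutation p of 0.3 (0.375 adjusted).

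GRB10, an adaptor that restrains signalling of the insulin receptor and is read from different parental copies in different tissues, gave 1382, 3163 and 1670 normalized reads in the GOLPH3-labelled and 4954, 2970 and 2631 in the Vector-labelled libraries. GOLPH3 replicate 2 lay above 2 of the 3 Vector-labelled libraries, so the groups overlapped, and the log2 fold change of -0.80 with a standard error of 0.37 had an adjusted p of 0.282 (limma), while it was called lower with the P number as a block. L3MBTL1, a chromatin-compacting protein of the paternal copy on chromosome 20, gave 282, 172 and 189 against 121, 167 and 138. Its groups were separated by the gap between 167 and 172, and the log2 fold change of 0.57 had an adjusted p of 0.454. NNAT, the proteolipid neuronatin, gave 18.2, 30.5 and 17.1 against 13.4, 5.48 and 18.9, while its host gene BLCAP stayed between 586 and 987 in all libraries.

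IGF2, the fetal growth factor, and H19, the maternally expressed non-coding RNA beside it, were low. IGF2, with 12 to 26 recovered reads in every library, lay above the floor and gave 23.6, 17.3 and 21.3 normalized reads in the GOLPH3-labelled and 14.4, 13.1 and 22.3 in the Vector-labelled libraries. H19, with 0 to 9 reads, gave 5.37, 7.42 and 2.13 against 6.18, 0 and 4.29. Neither separated the groups, and their 95% confidence intervals ran from -0.80 to 1.46 and from -1.08 to 2.51 on the log2 scale. In the annotation 75% of the IGF2 exon sequence is shared with other gene records, among them a second IGF2 record, so its reads may be split or left uncounted. IGF2R, the receptor that clears IGF2 and whose imprinting varies between people, gave 3579, 4367 and 3641 against 3741, 3269 and 3947, with a log2 fold change of 0.08 and a 95% confidence interval from -0.49 to 0.65.

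In the DLK1-DIO3 cluster on chromosome 14, MEG3 (a non-coding RNA of the maternal copy), DLK1 (a Notch-like ligand) and RTL1 (a retrotransposon-derived gene) had at most 3 reads in every library. MEG8 lay between 0.825 and 5.37 normalized reads. DIO3, which inactivates thyroid hormone, was the gene of this cluster with the highest values and gave 18.2, 6.6 and 27.8 in the GOLPH3-labelled and 15.4, 6.57 and 12.01 in the Vector-labelled libraries, which overlap.

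In the Prader-Willi region on chromosome 15, SNRPN (a spliceosome protein), SNURF (its upstream reading frame), NDN (a MAGE family growth suppressor) and the maternally expressed phospholipid flippase ATP10A were listed at 0 in all 6 libraries, and MAGEL2 had at most 2 reads. At the flanks of the same region, MKRN3, a ubiquitin ligase linked to the timing of puberty, gave 76.2, 115 and 133 normalized reads against 48.4, 85.4 and 106, and UBE3A, the ubiquitin ligase of Angelman syndrome, gave 2227, 2163 and 1442 against 2064, 2993 and 1469. Both were present in every library, with log2 fold changes of 0.47 and -0.13 and groups that overlapped. PEG3 and ZIM2, zinc finger genes on chromosome 19 that share exons, were also listed at 0 in every library. A listing at 0 is not read as silence here, because some genes that every cell uses were listed alike: TUBB, RPS18 and FLOT1, chosen after their values were seen, had at most 2, 1 and 0 reads in every library. These 3 lie in 1 stretch of chromosome 6 (positions 3.07e+07 to 3.33e+07), while GAPDH on chromosome 12 had 34013 to 51447 reads. Whether genes of chromosomes 15 and 19 are listed too low in the same way was not tested. Of SNRPN, 33.6% of the exon sequence is shared with other records on the same strand, of SNURF 69.3% and of ZIM2 41.2%, whereas NDN and ATP10A share none.

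**Figure D4:**
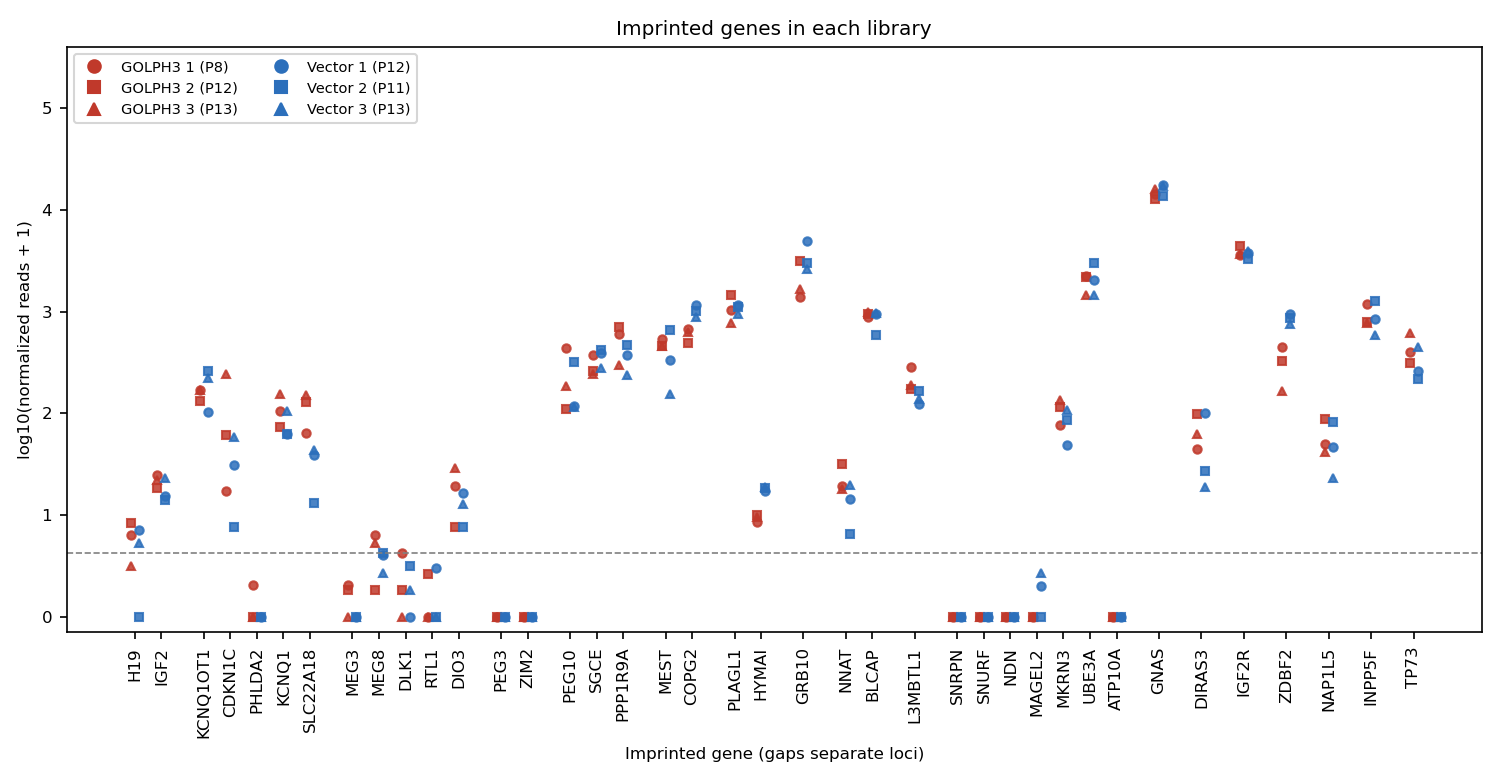
Level of each of the 39 imprinted genes in each library, as log10 of normalized reads + 1 (vertical axis), ordered by locus along the horizontal axis. The dashed line marks 3 reads in the library with the largest step (3.29 normalized reads), and SNRPN, SNURF, NDN, ATP10A, PEG3 and ZIM2 sit at 0 in all 6 libraries.

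Compared per kilobase of annotated exon, GNAS, the stimulatory G protein alpha subunit, had the highest level of the imprinted genes, with a mean of 1146 and a range from 956 to 1325 normalized reads per kilobase over the 6 libraries. GRB10 followed with a mean of 285 (141 to 506), then IGF2R with 211 (183 to 245), COPG2 with 196 (119 to 283) and UBE3A with 161 (113 to 234). The ranges of these 4 neighbours in the order overlapped, while that of GNAS lay above all of them. GNAS differed by at most 1.39-fold and IGF2R by at most 1.34-fold between any of the 6 libraries. Within a group, the highest library was a median of 1.83 times the lowest in the GOLPH3-labelled and 2.01 times in the Vector-labelled libraries over the imprinted genes tested. DIRAS3, a RAS-related growth suppressor of the paternal copy, ranged 5.54-fold within the Vector-labelled libraries alone (99.8, 26.3 and 18.0 normalized reads), and its log2 fold change of 0.81 was not called. Of the remaining genes, the phosphatase INPP5F gave 593 to 1281 normalized reads, the p53 relative TP73 217 to 611 and NAP1L5, a nucleosome assembly protein, 22.3 to 87.4, and all 3 overlapped between groups.

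Besides these genes, a list of 64 further imprinted genes was examined, of which 60 had a row, 18 stayed at or under 3 reads throughout and 43 were tested. Imprinting of several of them is tissue-limited or disputed. Of these, 3 of 43 were called higher in the GOLPH3-labelled libraries, beside 0.953% of all genes, and 5 of 43 were called lower, beside 4.12%. The 5 passed the filter on low values through the Vector-labelled libraries alone, so their count is not read as an excess over that share. Higher were SLC22A18AS, ANO1 (a calcium-activated chloride channel) and CRYBG1 (a crystallin-domain protein). ANO1 gave 2179, 2628 and 2592 normalized reads against 781, 1178 and 737, with a log2 fold change of 1.48 and an adjusted p of 0.00874 (limma), and CRYBG1 gave 955, 1012 and 651 against 317, 467 and 191, with 1.49 and 0.0366. The ANO1 call was lost in 2 and the CRYBG1 call in 8 of 15 alternatives.

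The 5 lower genes were listed at 0 in every GOLPH3-labelled library. WT1, a kidney and gonad transcription factor that is also among the HEK293 markers above, gave 74.1, 19.7 and 115 normalized reads in the Vector-labelled libraries, and its antisense gene WT1-AS gave 4.12, 5.48 and 10.3. DLX5, a homeobox factor, gave 57.6, 25.2 and 66.9, the zinc finger gene ZNF331 gave 30.9, 6.57 and 36.04, and GNAS-AS1, the antisense RNA of the GNAS locus, gave 22.6, 13.1 and 22.3. Against the floor of 3 reads per library they were at least 23.5-fold (WT1), 16.8-fold (DLX5), 8.26-fold (ZNF331), 6.53-fold (GNAS-AS1) and 2.24-fold (WT1-AS) lower in the GOLPH3-labelled libraries. These 5 genes passed the filter on low values through the Vector-labelled libraries alone, where they are high, so their calls follow in part from that filter and their p-values are not given. In all 5, Vector replicate 2 was lower than Vector replicate 3. GNAS itself, whose exons share 8.46% with GNAS-AS1 on the opposite strand, gave 14443, 12739 and 15916 against 17644, 13751 and 17128 and was not called, with a 95% confidence interval of its log2 fold change from -0.78 to 0.45.

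**Figure D5:**
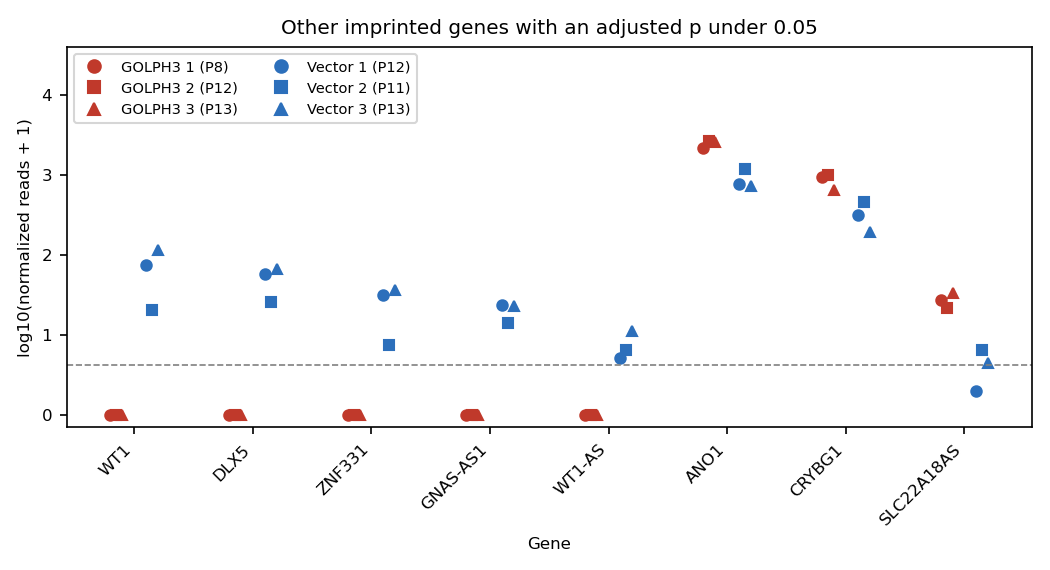
Level in each library, as log10 of normalized reads + 1 (vertical axis), of the 8 further imprinted genes with an adjusted p under 0.05. WT1, DLX5, ZNF331, GNAS-AS1 and WT1-AS are at 0 in all GOLPH3-labelled libraries, and the dashed line marks 3 reads in the library with the largest step.

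Genes that set or keep imprints were taken from a list of 29. Of these, 22 were tested and 0 were called in either direction by limma, beside 5.07% of all genes. By an unadjusted p under 0.05, 0 were higher and 2 of 22 lower, beside 17.6% of all genes in either direction. The 2 were TET1, which oxidizes methylated cytosine, and CTCFL, a germline relative of CTCF. CTCFL gave 2.15, 0 and 0 normalized reads in the GOLPH3-labelled and 7.21, 2.19 and 2.57 in the Vector-labelled libraries, with an adjusted p of 0.272 (limma). All its values but that of Vector replicate 1 were at or under the floor of 3 reads. It passed the filter on low values mainly through the Vector-labelled libraries, so its unadjusted p follows in part from that filter. TET1 gave 182, 42.9 and 65.1 normalized reads in the GOLPH3-labelled and 210, 409 and 326 in the Vector-labelled libraries, with a log2 fold change of -1.91, a standard error of 0.51 and an adjusted p of 0.0539. The groups did not overlap, in the lower direction, for TET1, CTCF, CTCFL and EED (4 of 22, beside 12.8% of all genes). In the higher direction this held for 0 of 22, beside 9.2%. The maintenance methyltransferase DNMT1 had a log2 fold change of -0.13. TRIM28, the corepressor at imprinted control regions, had 0.42 and UHRF1, the partner of DNMT1, had 0.02. ZFP57, DNMT3L, DPPA3, EHMT2, NLRP7, KHDC3L and PADI6 were listed at 0 in every library, with the limit on such a listing given above. Of these, EHMT2 lies within the stretch of chromosome 6 named there and ZFP57 close to it.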

How the data were processed

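RNA-seq values of 6 libraries that the labels give as HCT-116 were analysed, 3 labelled GOLPH3 and 3 labelled Vector. The submitters' processing notes name fastp 0.20.0, HISAT2 2.1.0, Cufflinks, featureCounts 1.6.1 and DESeq2 and the build GRCh38, without saying which made the table, and the annotation is not given in the sources used here. The signal deposited by the authors is read number per gene, scaled per library but not by gene length. In every library 100% of the values were whole multiples (within 0.02 of a read) of 1 step, so reads were recovered by dividing by it. The table had 60590 rows, and where an identifier had a second row (44 cases) both were summed. Gene positions, exon lengths and shared exon sequence came from GENCODE 29, which held 96.4% of the identifiers. Depth was 15708846 to 21900764 reads, and the floor of 3 reads covers counting error only.

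The main test was limma 3.58.1 (R 4.3.3) with an intensity-trended prior on log2(value + 1), run on 26536 genes that reached 1 normalized read in 3 or more libraries. Benjamini-Hochberg adjusted p-values under 0.05 were called. Fold changes are on the log2(value + 1) scale, which understates those of low genes. The fits were tested on simulated data. Shares within pairs of neighbours, not scaled by gene length, were compared by exact permutation over the libraries. edgeR 4.0.16 and DESeq2 1.42.0 on the recovered reads, other filters, a pseudocount of 0.1, quantile normalization, blocks and covariates and leaving out each library were alternatives. Full statistics are given for imprinted genes with an adjusted p under 0.05 or with groups that do not overlap and an absolute log2 fold change over 1, values per library for genes of a locus described, and ranges for the rest. Additional genes and regulators are named where the adjusted p is under 0.05, and others named were chosen after their values were seen. The genes, lists and marker sets were chosen with earlier results of these data known, and parents of expression were assigned from general knowledge. The samples of a line are generations of it, so p-values measure the spread between these samples, which may be technical.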

Additional observations from a re-analysis of the deposited data

How the results depend on the processing

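The count of imprinted genes called lower, 1 as reported, became 0 with at least 1 normalized read required in every library, with a pseudocount of 0.1 and with edgeR, and 3 (COPG2, GRB10 and ZDBF2) with the P number as a block. It was 0 to 1 when 1 library was left out. The count called higher, 0 as reported, became 1 (SLC22A18) with quantile normalization and with DESeq2, 2 (CDKN1C and SLC22A18) with the P number as a covariate and 4 (CDKN1C, MEST, PPP1R9A and SLC22A18) with it as a block, and was 0 to 1 with 1 library left out. Of all genes, 22.9% were called under the P block and 9.04% under the P covariate, beside 5.07% as reported. The P block draws the group difference from the P12 and P13 pairs alone, since P8 and P11 occur in 1 library each, and leaves little to estimate the spread from. The median log2 fold change of 0.34 became 0.53 with quantile normalization (which moved the median of all genes to 0.09), 0.26 with the P covariate, 0.074 with the P block and 0.12 to 0.35 with 1 library left out. The causes were not tested.

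With the replicate number as a replicate block, 1 gene was called lower and 0 higher, with a median of 0.34. Deviations of same-numbered libraries correlated at -0.23, -0.15 and 0.26, so the replicate numbers do not pair the libraries. The last of these pairs also shares P13, and the pair that shares P12 correlated at 0.26. GOLPH3 replicate 1 (P8) and Vector replicate 2 (P11) had the highest correlation, 0.33. All pairs not named here were negative, from -0.20 to -0.01. The main test used no pairing of libraries. No alternative reversed the direction of ZDBF2, SLC22A18 or the 8 further imprinted genes called, but this adds no support. The groups of all these genes do not overlap, so leaving out a library could not reverse them. For the genes at 0 in every GOLPH3-labelled library, the values leave no room for the other direction. The 5 genes at 0 in the GOLPH3-labelled libraries could not be fitted with at least 1 read required in every library, nor, since 2 libraries remain with a value, with a Vector-labelled library left out. HYMAI, H19 and MEG8 rest on few reads, and 22 of the 28 confidence intervals reach past 1 on the log2 scale.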
